A study of Mus musculus with 2 samples.

Results

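The vascular endothelial growth factor (VEGF) family was followed here through 9 genes of the 27998 in the deposited count tables. They were chosen as members of the family: 4 ligands (Vegfa, Vegfb, Vegfc and Pgf), 3 receptor tyrosine kinases (Flt1, Kdr and Flt4) and 2 co-receptors (Nrp1 and Nrp2). Each gene was summed over the cells of every annotated cell type in 2 libraries of single-cell transcriptomes from the mouse tibialis anterior, a muscle of the shin. One was taken 2 days and the other 7 days after the muscle was injured with notexin, a toxin from snake venom. The comparison shows where the ligands and their receptors were found early and later in regeneration. Both libraries came from C57BL/6J mice with no transgene or other agent named, and each held 1 mouse.

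The sample labels and the cell annotation did not give the same animals. The labels give female mice of 7 months for both libraries, whereas the annotation gives males, of 4 months at day 2 and 7 months at day 7. Transcripts of 4 Y-linked genes were present in both libraries (6575 and 4856 counts), and Xist was at 5 counts and 1 count. This is a male pattern in both, as the annotation gives and the labels do not. With 1 library for each day, the day, the mouse, any difference in age and the library cannot be told apart. No test was made, and every interval in the text is a 95% interval for counting error only.

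VEGF ligands are secreted dimers that bind receptor tyrosine kinases on the surface of endothelial cells. Kdr carries most of the signal for endothelial division and sprouting. Flt1 binds Vegfa, Vegfb and Pgf tightly but signals weakly, and a soluble form of it acts as a trap. Flt4, bound by Vegfc, is best known from lymphatic vessels. Nrp1 and Nrp2 bind VEGF together with the kinases and also serve as receptors for class 3 semaphorins. In muscle the family is known for keeping the dense capillary bed that surrounds each fibre and for rebuilding it after injury.

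The genes lie on separate parts of the genome (mm10, the GRCm38 assembly, with GENCODE positions): Vegfa on chromosome 17 from 46016993 to 46032369, minus strand, Vegfb on chromosome 19 from 6982473 to 6987651, minus strand, Vegfc on chromosome 8 from 54077606 to 54187096, plus strand and Pgf on chromosome 12 from 85166635 to 85177790, minus strand. Flt1 (chromosome 5 from 147561604 to 147726011, minus strand) and Kdr (chromosome 5 from 75932827 to 75978458, minus strand) share a chromosome, Flt4 lies on chromosome 11 from 49609263 to 49652739, plus strand, Nrp1 on chromosome 8 from 128358604 to 128503363, plus strand and Nrp2 on chromosome 1 from 62703285 to 62818695, plus strand. All 9 are protein coding. RefSeq promoter windows of GRCm38.p6 were found for all 9. The stretch before the start is printed for 1 member that was lower and 3 that were higher at day 7 in endothelial cells, because their windows hold at most 3 bases of annotated exon, which were left out. The Nrp1 stretch lies inside the gene as GENCODE bounds it and outside its annotated exons. They cover chr17:46032378-46032627 (250 bases, minus strand), chr8:54077282-54077531 (250 bases, plus strand), chr5:75978459-75978705 (247 bases, minus strand) and chr8:128358823-128359072 (250 bases, plus strand). Capitals mark a match on either strand to the hypoxia response cores ACGTG and GCGTG or to the AP-1 motif TGANTCA.
Vegfa: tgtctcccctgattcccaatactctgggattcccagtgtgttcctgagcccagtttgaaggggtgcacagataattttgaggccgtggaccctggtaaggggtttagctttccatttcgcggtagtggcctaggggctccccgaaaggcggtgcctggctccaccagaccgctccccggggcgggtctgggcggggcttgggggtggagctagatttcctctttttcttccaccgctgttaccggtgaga
Vegfc: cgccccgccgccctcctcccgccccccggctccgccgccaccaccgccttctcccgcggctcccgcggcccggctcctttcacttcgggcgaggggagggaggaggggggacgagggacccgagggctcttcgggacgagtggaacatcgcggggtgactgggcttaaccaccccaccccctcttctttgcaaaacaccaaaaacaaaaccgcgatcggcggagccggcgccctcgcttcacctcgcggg
Kdr: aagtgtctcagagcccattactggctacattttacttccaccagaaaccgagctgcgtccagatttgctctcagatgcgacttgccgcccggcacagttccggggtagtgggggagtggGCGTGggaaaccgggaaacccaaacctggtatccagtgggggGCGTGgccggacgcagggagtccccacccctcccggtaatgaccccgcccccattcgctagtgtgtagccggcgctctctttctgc
Nrp1: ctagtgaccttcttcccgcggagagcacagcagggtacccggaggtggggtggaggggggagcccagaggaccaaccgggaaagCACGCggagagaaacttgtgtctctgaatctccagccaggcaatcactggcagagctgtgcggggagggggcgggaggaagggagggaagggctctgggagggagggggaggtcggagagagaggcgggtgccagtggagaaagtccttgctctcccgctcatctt
The Vegfa stretch held none of the 3 motifs, though a second Vegfa window (chr17:46025164-46025413), not printed because it overlaps annotated exons, held 1 match to ACGTG and 1 to GCGTG. The Vegfc stretch held none either, the Kdr stretch held 2 matches to GCGTG and the Nrp1 stretch held 1. Over the 9 members, 6 of the first windows held a core motif, and no first window held the AP-1 motif. Of all 32851 windows of 250 bases, 38.6% held ACGTG or GCGTG and 6.75% held TGANTCA. A match describes these letters only, and a window with no match says nothing of a factor acting elsewhere.

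After quality limits, 3208 cells at day 2 and 3221 at day 7 were kept, with medians of 9010 and 6557 unique molecular counts per cell. Of these, 3178 and 3196 cells had 1 of 25 cell type labels, which were gathered into 12 classes. The libraries shared 4 called cell barcodes, of which 1 was kept. Levels are CPM, the counts of a gene scaled to a total of 1e+06 counts in the class or label. Of the labels, Smooth Muscle was not borne out as smooth muscle alone. At day 2 only 8 of its 304 barcodes, and at day 7 only 25 of 232, held under 3 counts over 11 endothelial markers. Under 3 counts over 10 smooth muscle and pericyte markers were held by 98 and 74. In 198 and 133 barcodes both marker sets reached 3 or more counts, and the summed smooth muscle and pericyte marker level of the label was 3054 and 5350 CPM. The label is called the barcodes labelled Smooth Muscle, and its values are not read as those of smooth muscle cells. The 4 endothelial labels had summed endothelial marker levels of 7856 to 11894 CPM, and the barcodes labelled Smooth Muscle had 7130.4 and 9773 CPM. T cells of both days and B cells of day 2 had 1793 to 2187 CPM, and every other label had 34.3 to 821 CPM.

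Pgf, which codes for placental growth factor, a ligand of Flt1, was the ligand that differed most between the days in endothelial cells. It stood at 935 CPM (897 to 974) in 336 endothelial cells at day 2 and at 8.94 CPM (5.0 to 14.7) in 333 cells at day 7, that is 105-fold lower at day 7 (63.3 to 187). The log2 ratio was -6.71, and -5.82 without mixed barcodes, meaning those with 3 or more marker counts of another class, which left 215 and 213 cells. The 2268 counts in 211 of 336 cells at day 2 compared with 15 counts in 7 of 333 cells at day 7. In free RNA, taken from barcodes with 1 to 100 counts, Pgf was at 67.8 and 6.24 CPM. After every cell was thinned to 2000 counts, Pgf was detected in 50.6% (45.1 to 56.1) of endothelial cells at day 2 and in 0.929% (0.192 to 2.69) at day 7, against 7.58% (2.51 to 16.8) and 0.860% (0.178 to 2.49) of T and NK cells.

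Along the vessel the day 2 level of Pgf was highest in capillary endothelium, at 1181 CPM (1121 to 1243), and in the label Endothelial (Stem), at 971 CPM (904 to 1043). It was 142 CPM (84.2 to 224) in the 15 arterial cells and 87.7 CPM (56.2 to 130.4) in the 12 venous cells, labels under the minimum of 20 cells set for comparing labels. The barcodes labelled Smooth Muscle had 549.6 CPM (529 to 570.3) at day 2 and 22.1 CPM (16.9 to 28.5) at day 7. At day 2 their Pgf counts lay in barcodes with endothelial transcripts: the 8 barcodes with under 3 endothelial marker counts held 0 counts of Pgf. At day 7 the 25 such barcodes held 1 count, at 8.90 CPM (0.225 to 49.6), which overlapped the 22.7 CPM (17.3 to 29.3) of the rest. In fibro-adipogenic progenitors (FAPs), the mesenchymal stromal cells of muscle, Pgf was 23.8 CPM (19.7 to 28.4) and 10.4 CPM (8.33 to 12.9). In dendritic cells it was 68.9 CPM (58.3 to 81.0) and 0.962 CPM (0.0244 to 5.36). The stem FAP label differed from the rest of its class, at 19.7 CPM (12.7 to 29.1) and 50.6 CPM (34.4 to 71.8), whereas pro-remodeling FAPs had 25.7 CPM (20.6 to 31.5) and 5.43 CPM (3.72 to 7.67). Pgf was detected in 39 of 170 dendritic cells and 46 of 215 FAPs at day 2. Flt1, at 70.1 CPM in free RNA at day 2, was 2.79 CPM in dendritic cells and 2.92 CPM in FAPs. The part of free RNA in the Pgf levels was not tested. The Pgf counts of T and B cells are described with their receptor counts.

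Vegfa, the main ligand of Kdr, was lower at day 7 in every class with at least 50 cells at both days. Monocytes and macrophages had 168 CPM (162 to 174) at day 2 and 30.5 CPM (26.6 to 34.7) at day 7, which was 5.52-fold lower at day 7 (4.82 to 6.34). The log2 ratio was -2.46, and -3.66 without mixed barcodes, with 404 and 224 cells left. Vegfa was detected in 635 of 1292 of these cells at day 2 and in 76 of 757 at day 7. FAPs had 156 CPM (145 to 167) and 46.4 CPM (41.8 to 51.3), or 3.36-fold lower at day 7 (2.97 to 3.81). Free RNA held 82.9 CPM at day 2 and 26.6 CPM at day 7 in barcodes with 1 to 100 counts, and 105 and 39.7 CPM in barcodes with 1 to 10 counts. FAPs lay above both estimates at both days, whereas monocytes and macrophages at day 7 lay between them. Endothelial cells had 30.5 CPM (24.0 to 38.3) and 6.56 CPM (3.27 to 11.7), and dendritic cells had 59.6 CPM (49.7 to 70.9) and 15.4 CPM (8.80 to 25). Both classes lay below free RNA at both days, and its part in their differences was not tested.

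Within the myeloid cells the day 2 level differed several-fold between labels. Neutrophils held 275 CPM (252 to 299) in 708 cells, patrolling monocytes 236 CPM (218 to 255) and inflammatory monocytes 233 CPM (214 to 252), and the intervals of both monocyte labels overlapped. M1 macrophages followed at 167 CPM (158 to 178). M2 macrophages with high Cx3cr1 had 122 CPM (100 to 148), Cxcl10+ monocytes 122 CPM (89.6 to 161) and M2 macrophages with low Cx3cr1 76.7 CPM (67.4 to 87). At day 7 the highest of the 6 monocyte and macrophage labels was patrolling monocytes at 46.1 CPM (35.6 to 58.6), which overlapped M1 macrophages at 37.4 CPM (31.1 to 44.6). M2 macrophages with low Cx3cr1 held 0 counts in 105 cells at day 7. With a floor of 3 counts in place of 0, the level there was 14.8-fold lower than at day 2. NK cells were unlike T cells at day 7: they had 116 CPM (87.9 to 150.4), with 57 counts in 28 of 111 cells, while T cells had 5.54 CPM (2.53 to 10.5), with 9 counts in 6 of 293 cells. At day 2 NK cells had 133 CPM (68.5 to 232) in 21 cells. The day 2 muscle stem cells (MuSCs) had 449.7 CPM (315 to 623), from 36 counts in 7 of 21 cells, and 24.0 CPM (14.2 to 37.9) at day 7.

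**Figure D1:**
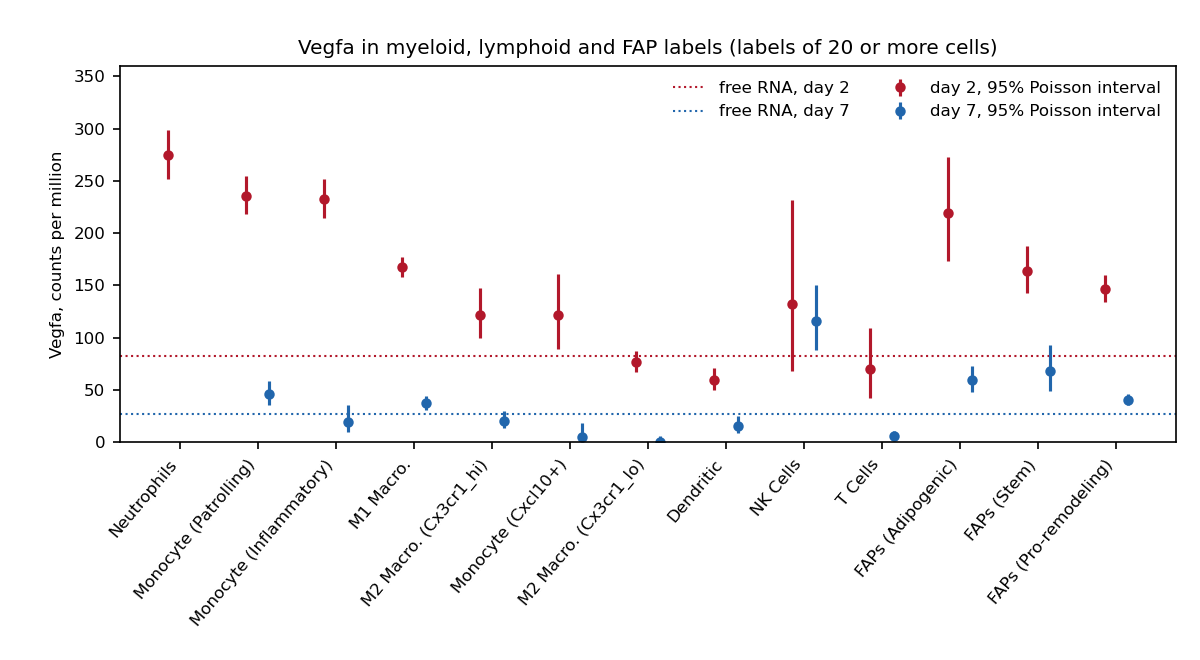
Vegfa level in CPM (vertical axis) in myeloid, lymphoid and FAP labels at day 2 and day 7, with exact Poisson intervals for counting error and dotted lines at the free RNA level of each day (82.9 and 26.6 CPM). Neutrophils at day 2 stood at 275 CPM, and NK cells were the lymphoid label above the free RNA line at day 7.

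Most Vegfa counts of day 2 came from myeloid cells and most of day 7 from stromal and myeloid cells. Monocytes and macrophages, 40.7% of the classed cells and 48.4% of all counts at day 2, held 61.4% (60.0 to 62.8) of all Vegfa counts in classed cells. FAPs held 17.8% (16.6 to 18.9), against 15.1% of all counts, and neutrophils 11.9% (10.9 to 12.8), against 5.72%. At day 7 FAPs, 25.2% of the cells and 29.5% of all counts, held 48.3% (44.7 to 51.8). Monocytes and macrophages then held 29.2% (26.1 to 32.6), against 27.2% of all counts. T and NK cells held 8.43% (6.58 to 10.6), against 7.66%, so both these classes were near their share of all counts. These shares depend on how many cells of each class the dissociation and capture gave. Over all kept cells Vegfa was 133 CPM at day 2 and 28.3 CPM at day 7, and Pgf 166 and 7.60 CPM. At day 2 Pgf counts lay mostly in the barcodes labelled Smooth Muscle, with 49.6% (48.3 to 51.0), and in endothelial cells, with 40.1% (38.8 to 41.4), and the largest share at day 7 was that of FAPs, at 40.5% (33.8 to 47.4).

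**Figure D2:**
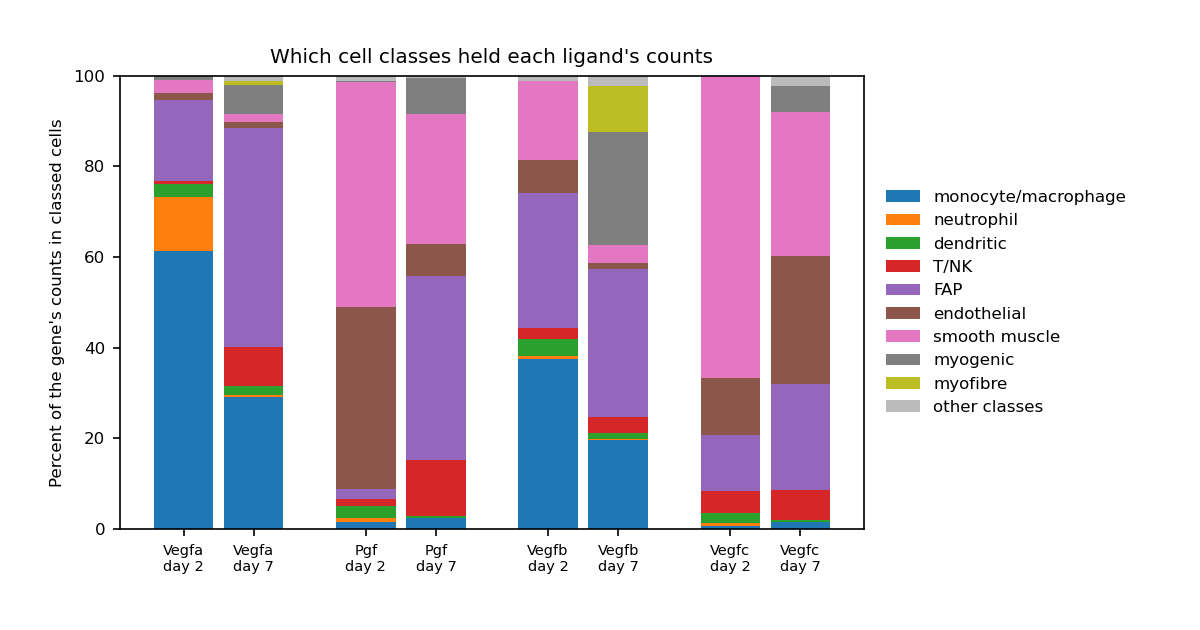
Share of the counts of each ligand by cell class (vertical axis, percent of the counts in classed cells) at day 2 and day 7, as stacked bars, in which smooth muscle stands for the barcodes labelled Smooth Muscle. Monocytes and macrophages held 61.4% of Vegfa counts at day 2, and FAPs held 48.3% at day 7.

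Vegfb, a ligand of Flt1 best known from oxidative tissues, was at 12.8 CPM (8.68 to 18.1) and 8.34 CPM (4.56 to 14.0) in endothelial cells, a difference within counting error. Monocytes and macrophages had 9.71 CPM (8.26 to 11.3) and 26.3 CPM (22.8 to 30.3), or 2.71-fold higher at day 7 (2.19 to 3.36), and FAPs had 24.7 CPM (20.6 to 29.4) and 40.1 CPM (35.9 to 44.7). Free RNA held 4.26 and 32.4 CPM of Vegfb, so the day 7 level of monocytes and macrophages lay below that of free RNA, and its part in their difference was not tested. The highest levels of Vegfb were in muscle itself at day 7. Type IIx myonuclei had 335 CPM (217 to 494), type IIb myonuclei 206 CPM (163 to 257) and myoblasts and progenitors 91.6 CPM (80.0 to 104). FAPs held 32.6% (29.7 to 35.6) of the Vegfb counts at day 7, near their share of all counts, and the myogenic class, with 11.7% of all counts, 25% (22.3 to 27.8). At day 2 the 22 cells of the myogenic class held 0 counts of Vegfb, and its level at day 7 was 77.7 CPM. With a floor of 3 counts at day 2 this was 2.12-fold higher, and the lower limit of the exact interval was 1.71-fold. Most of the day 2 cells were muscle stem cells, whereas the day 7 class also held the myoblasts and progenitors, so unlike cells were compared. The 6 myofibre barcodes of day 2 also held 0 counts.

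Vegfc, the ligand of Flt4 that drives lymphatic growth and also acts on blood vessels, went the other way from Pgf in endothelial cells. It was 7.42 CPM (4.4 to 11.7) at day 2 and 50.7 CPM (40.5 to 62.6) at day 7, or 6.83-fold higher at day 7 (4.07 to 12.1). The highest level lay in arterial endothelium, at 71.0 CPM (32.5 to 135) from 9 counts at day 2 and 317 CPM (238 to 415) from 53 counts at day 7. Venous cells had 75.8 CPM (39.2 to 132) at day 7, the stem label 23.7 CPM (11.8 to 42.3) and capillary cells 10.1 CPM (4.64 to 19.2), so the arterial interval did not overlap those of the other 3 labels. The barcodes labelled Smooth Muscle had 18.8 CPM (15.2 to 23.0) and 35.4 CPM (28.7 to 43.3). Among them, those with 3 or more smooth muscle marker counts had 23.7 CPM at day 2 and the rest 2.53 CPM. At day 7 the order was the other way, at 32.7 and 42.6 CPM, with overlapping intervals. FAPs had 3.51 CPM (2.08 to 5.54) and 8.71 CPM (6.80 to 11). NK cells at day 7 had 28.5 CPM (15.6 to 47.8), with 14 counts in 13 of 111 cells. Figf, the deposited name of Vegfd, the other ligand of Flt4, was found in FAPs at 38.2 and 15.7 CPM.

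**Figure D3:**
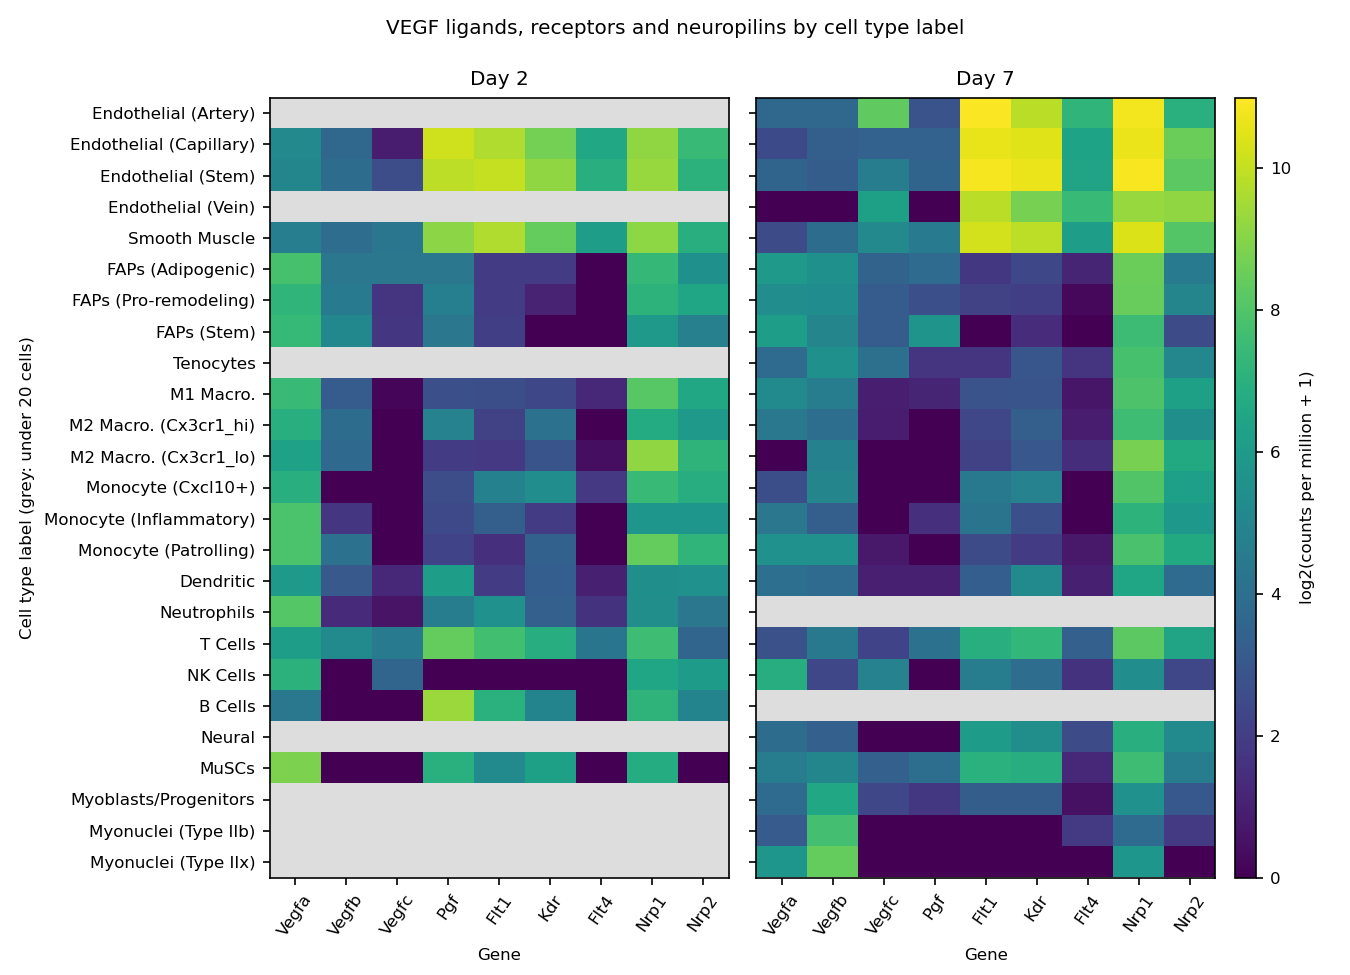
Heat map of log2(CPM + 1) of the 9 genes (columns) in the cell type labels (rows) at day 2 and day 7 (left and right panels), with labels under 20 cells in grey. The kinase receptors were high in the endothelial labels and in the barcodes labelled Smooth Muscle, and Vegfb was high in the myonuclei of day 7.

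All 3 kinase receptors were found chiefly in the endothelial labels and in the barcodes labelled Smooth Muscle. Those barcodes held the larger share of counts at day 2, with 61.9% (60.7 to 63.0) of Flt1, 56.4% (54.6 to 58.2) of Kdr and 58.2% (54.2 to 62.0) of Flt4. Endothelial cells held 34.1% (32.9 to 35.2), 37.2% (35.5 to 39.0) and 38.4% (34.5 to 42.3). The barcodes labelled Smooth Muscle also held more of all counts at day 2 than endothelial cells did. Their day 2 levels were 815 CPM (790 to 840) of Flt1, 339 CPM (323 to 355) of Kdr and 71.9 CPM (64.7 to 79.6) of Flt4. All 3 lay below the endothelial levels given next, with no overlap of intervals. At day 7 the shares of Flt1 were 51.0% (49.8 to 52.2) and 42.4% (41.2 to 43.6). The Flt1 level of those barcodes was then 1219 CPM (1178 to 1261), again below that of endothelial cells. Kdr, the main signalling receptor for Vegfa, was 471 CPM (444 to 499) in endothelial cells at day 2 and 1329.7 CPM (1275 to 1386) at day 7, or 2.82-fold higher at day 7 (2.63 to 3.04). Flt1, the receptor and trap of Vegfa, Vegfb and Pgf, was 945 CPM (907 to 985) and 1635 CPM (1575 to 1698), or 1.73-fold higher at day 7 (1.64 to 1.83). The counts do not separate the soluble form of Flt1 from the membrane form. Flt4, the receptor of Vegfc, differed within counting error, at 99.8 CPM (87.6 to 113) and 97.7 CPM (83.4 to 114), with a log2 ratio of -0.03 (-0.32 to 0.26). At 2000 counts per cell, Kdr was detected in 55.1% (49.6 to 60.6) of endothelial cells at day 2 and 85.8% (81.5 to 89.4) at day 7, and Flt1 in 70.8% (65.6 to 75.6) and 89.2% (85.3 to 92.3). Flt1 was detected in 7.58% (2.51 to 16.8) and 5.16% (3.08 to 8.03) of T and NK cells at that depth, a class that should lack it.

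The receptors were read along the vessel tree, from artery through capillary to vein. In capillary cells Kdr was 415 CPM (379.8 to 452) at day 2 and 1398 CPM (1322 to 1478) at day 7, and in the stem label 577 CPM (525 to 633) and 1647 CPM (1532 to 1768). Arterial cells had 687 CPM (549.9 to 847) and 934 CPM (793 to 1093), and venous cells 318 CPM (255 to 392) and 429.7 CPM (334 to 545). Flt1 was 813 CPM (763 to 865) and 1582 CPM (1500.2 to 1667) in capillary cells. In arterial cells it hardly differed, at 1996 CPM (1758 to 2258) and 1976 CPM (1769 to 2202). The order of Kdr at day 7 ran from stem and capillary through artery to vein, with no overlap of intervals between neighbours. The authors clustered the cells on expression and named the clusters by canonical genes, so differences between labels are descriptions.

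The counts of Flt1 for each count of Kdr, read as a ratio, were compared between labels and days, since both genes are read in the same cells. In endothelial cells it was 2.01 (1.87 to 2.16) at day 2 and 1.23 (1.16 to 1.30) at day 7. Capillary cells had 1.96 (1.76 to 2.18) and 1.13 (1.05 to 1.22), and the stem label 1.79 (1.60 to 2.02) and 1.13 (1.02 to 1.24). Arterial cells had 2.91 (2.27 to 3.75) and 2.12 (1.74 to 2.58), and venous cells 2.51 (1.95 to 3.25) and 2.15 (1.60 to 2.91). At day 7 the arterial and venous ratios lay above those of capillary and stem cells with no overlap of intervals.

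**Figure D4:**
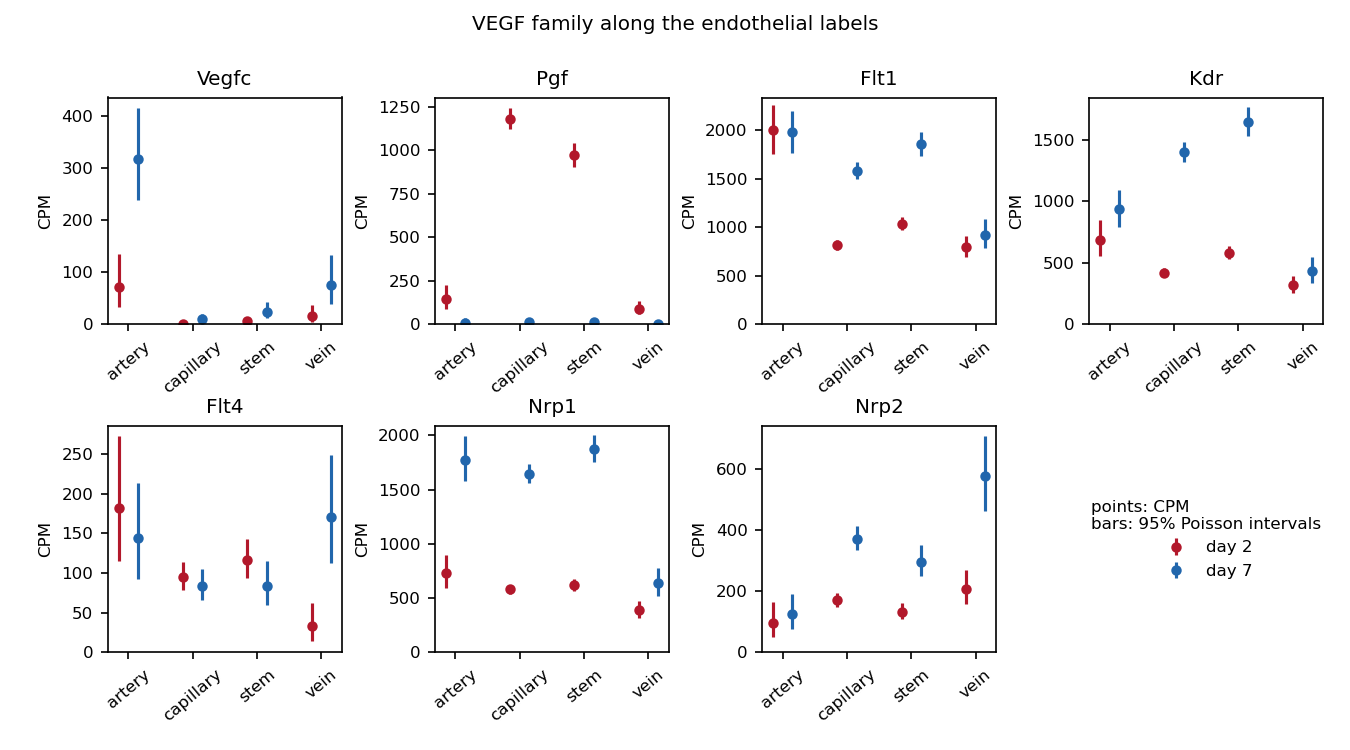
Levels in CPM (vertical axis) of Vegfc, Pgf and the 5 receptors in the artery, capillary, stem and vein labels at day 2 and day 7, with exact Poisson intervals for counting error. Vegfc stood highest in artery, at 317 CPM at day 7, and Pgf in capillary at day 2, at 1181 CPM.

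Flt4 in the venous label at day 7 depended on 2 barcodes. The label had 171 CPM (112 to 248), from 27 counts, of which 24 lay in 2 of its 21 barcodes. Those 2 barcodes held 189 counts over the lymphatic endothelial markers. The other 19 barcodes held 3 Flt4 counts, or 21.1 CPM (4.34 to 61.6), and the log2 ratio to capillary cells was 1.03 with the 2 barcodes and -1.98 without them. Nrp2 in the venous label was hardly moved by them, at 575 CPM with them and 569 CPM without.

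Both neuropilins were higher at day 7 in endothelial cells. Nrp1, which binds Vegfa beside Kdr, was 582 CPM (552 to 613) at day 2 and 1629 CPM (1569 to 1692) at day 7, or 2.80-fold higher at day 7 (2.62 to 2.99). Nrp2, which binds Vegfc beside Flt4, was 159 CPM (143 to 175) and 346 CPM (318 to 375), or 2.18-fold higher at day 7 (1.91 to 2.48). Nrp1 at day 7 ranged from 1875 CPM (1752 to 2004) in the stem label to 638 CPM (519.9 to 776) in venous cells. Nrp2 was highest in venous cells, at 575 CPM (463 to 706), and lowest in arterial cells at 126 CPM (77.9 to 192).

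In FAPs and dendritic cells the neuropilins went opposite ways, whereas both were lower at day 7 in monocytes and macrophages. FAPs had 119.8 CPM (111 to 129.7) of Nrp1 at day 2 and 336 CPM (323 to 349) at day 7, or 2.80-fold higher at day 7 (2.57 to 3.06). Nrp2 in FAPs was 69.5 CPM (62.5 to 77.1) and 27.4 CPM (23.9 to 31.2), or 2.54-fold lower at day 7 (2.14 to 3.02), which fell under 2-fold without mixed barcodes. Monocytes and macrophages had 301 CPM (292 to 309) and 241 CPM (229.7 to 252) of Nrp1, and 105 CPM (99.9 to 109.9) and 75.5 CPM (69.4 to 82.0) of Nrp2. The highest myeloid Nrp1 lay in M2 macrophages with low Cx3cr1, at 569 CPM (543 to 596) and 433 CPM (381 to 489.8). In inflammatory monocytes it was 54.0 CPM (45.3 to 63.9) and 138 CPM (109 to 173), and M2 macrophages with high Cx3cr1 had 108 CPM (87.5 to 133) and 192 CPM (169 to 219), so their direction differed from that of the class. Free RNA held 94.0 and 186 CPM of Nrp1, above inflammatory monocytes at both days and within the intervals of M2 macrophages with high Cx3cr1. Without mixed barcodes the log2 ratio of Nrp1 in the class was 0.70. Dendritic cells had 44.2 CPM (35.8 to 54.1) and 90.4 CPM (73.1 to 111) of Nrp1, and 45.6 CPM (37.0 to 55.6) and 13.5 CPM (7.36 to 22.6) of Nrp2, where 8 of the 14 day 7 counts lay in 1 cell. Kdr in dendritic cells was 8.85 CPM (5.33 to 13.8) and 36.6 CPM (25.9 to 50.2). Kdr and Nrp1 in dendritic cells lay below free RNA at both days, where Kdr was 33.7 and 99.3 CPM. The part of free RNA in these values was not tested.

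Counts of Pgf, Flt1 and Kdr in T and NK cells came almost wholly from a few barcodes. Of 71 and 404 cells, 8 at day 2 and 23 at day 7 held 2 or more counts over 6 endothelial genes. These 8 held all 92 Pgf counts, all 56 Flt1 counts and all 31 Kdr counts of the class at day 2. At day 7 the 23 held all 26 Pgf counts, 202 of 211 Flt1 counts and 254 of 259 Kdr counts. The other 381 cells of day 7 held 9 counts of Flt1 and 5 of Kdr. Nrp1 was less tied to these barcodes, since 31 of 60 counts at day 2 and 188 of 500 at day 7 lay in the other cells, and Nrp2 had 6 of 9 and 5 of 138 counts there. In B cells at day 2, 3 of 29 barcodes held all 65 Pgf counts. Whether such barcodes hold 2 cells was not tested.

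Counted over the family, endothelial cells had 4 of 9 members at least 2-fold higher at day 7 (Vegfc, Kdr, Nrp1 and Nrp2) and 2 lower (Vegfa and Pgf), with a median log2 ratio of 0.79 against 0.06 over all genes with at least 20 counts. Of all those genes, 14.9% were 2-fold or more higher and 9.50% lower. The barcodes labelled Smooth Muscle had 3 higher (Kdr, Nrp1 and Nrp2) and 2 lower (Vegfa and Pgf) of 9, against 14.1% and 7.86% of all genes, with a median of 0.58 against 0.10. FAPs had 3 higher (Vegfc, Kdr and Nrp1) and 3 lower (Vegfa, Pgf and Nrp2) of the 8 members with at least 20 counts, against 25.6% and 14.0%, with a median of 0.35 against 0.21. Kdr there rested on 5 and 26 counts. Without mixed barcodes, with 33 and 274 FAPs left, the log2 ratio of Kdr was 0.02 in place of 1.71, of Vegfc 0.48 in place of 1.31 and of Nrp2 -0.58 in place of -1.35. Monocytes and macrophages had 1 higher (Vegfb) and 2 lower (Vegfa and Pgf) of 7, against 19.3% and 12.8%, with a median of -0.32 against -0.02. Dendritic cells had 2 higher (Kdr and Nrp1) and 3 lower (Vegfa, Pgf and Nrp2) of 6, against 13.6% and 8.44%, with a median of -0.45 against 0.05. T and NK cells had 1 higher (Nrp2, whose log2 ratio was -3.09 without the 8 and 23 barcodes with endothelial counts) and 3 lower (Vegfa, Vegfc and Pgf) of 9, against 14.7% and 8.22%, with a median of -0.70 against 0.04. Vegfc there rested on 7 and 20 counts, its interval spanned 0 (-1.03 (-2.33 to 0.46)), and without the barcodes with endothelial counts its log2 ratio was 0.08 and Pgf had 0 counts at both days. The members that missed the minimum of 20 counts were Flt4 in FAPs, Vegfc and Flt4 in monocytes and macrophages, and Vegfc, Flt1 and Flt4 in dendritic cells. Vegfa and Pgf were lower at day 7 in all 6 classes. Free RNA moved in the same direction for these and for the members that were higher in several classes: it was lower for Vegfa and Pgf, and went from 4.26 to 32.4 CPM for Vegfb, from 1.64 to 7.05 for Vegfc, from 33.7 to 99.3 for Kdr and from 94.0 to 186 for Nrp1, while Nrp2 was 43.9 and 43.5 CPM. Of the levels counted as higher, Vegfb in monocytes and macrophages, Kdr in FAPs and Kdr and Nrp1 in dendritic cells lay below free RNA at day 7. Vegfa, counted as lower, lay below free RNA at both days in endothelial cells, the barcodes labelled Smooth Muscle and dendritic cells. Pgf lay below free RNA at day 2 in FAPs and in monocytes and macrophages. The part of free RNA in these differences was not tested.

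**Figure D5:**
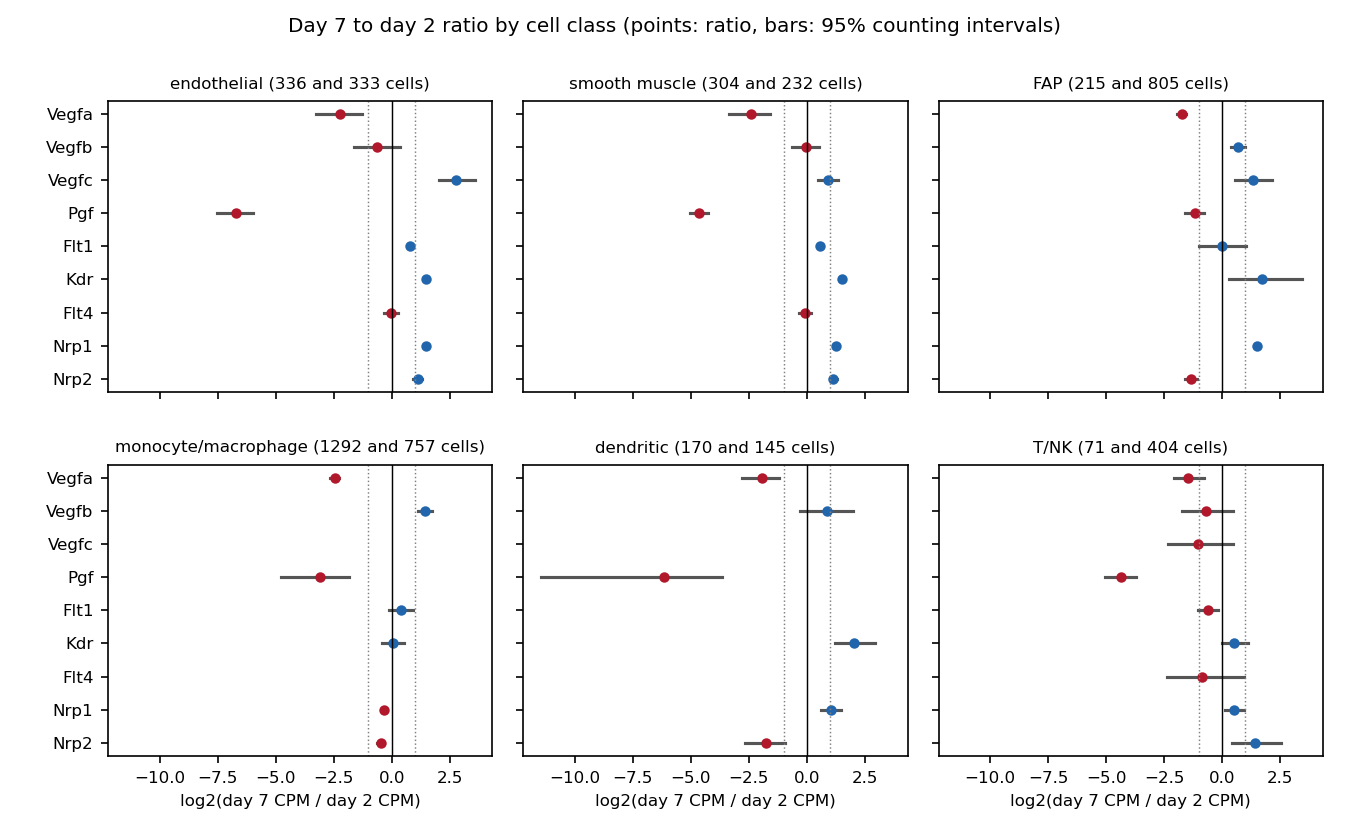
Log2 ratio of day 7 to day 2 (horizontal axis) of the 9 genes in the 6 classes with at least 50 cells at both days, with exact conditional binomial intervals for counting error, for members with at least 20 counts. Dotted lines mark 2-fold either way. Pgf in endothelial cells lay at -6.71, and Nrp2 lay on opposite sides of 0 in endothelial cells and FAPs.

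Lists of genes that work with the family were read in endothelial cells, where 14.9% of all genes were 2-fold or more higher and 9.50% lower. Of 17 genes known to be induced by VEGF, 14 had at least 20 counts, of which 3 were 2-fold or more higher at day 7 and 7 lower, with a median log2 ratio of -0.95 against 0.06 over all genes. Apln, a peptide of sprouting endothelium, went from 1026 to 54.2 CPM and Angpt2, an antagonist of Tek, from 320.4 to 33.4 CPM. Hlx, a transcription factor, went from 19.0 to 66.8 CPM and Plat, the tissue plasminogen activator, from 14.8 to 44.1 CPM. Of the receptor signal chain, 14 of 18 genes had at least 20 counts, of which 3 were higher and 0 lower (median -0.17). Plcg1, the phospholipase bound by Kdr, went from 31.7 to 86.4 CPM and Nck1, an adaptor, from 69.7 to 159 CPM, while Nos3, the endothelial nitric oxide synthase, went from 272 to 140.1 CPM and Shb, another adaptor, from 46.6 to 29.2 CPM.

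Of 14 tip cell genes, 12 had at least 20 counts, of which 1 was higher and 2 lower (median 0.57). Plvap, a protein of endothelial fenestrae, went from 100.2 to 294 CPM and Lxn from 51.1 to 95.4 CPM, and the 2 lower genes were Apln and Angpt2. Of 13 semaphorins and plexins that work with the neuropilins, 6 had at least 20 counts, of which 1 was higher and 1 lower (median -0.31). The semaphorin receptor Plxnd1 went from 175 to 458 CPM and Plxna2 from 351 to 174 CPM, and the neuropilin ligands Sema3f and Sema3g from 199 to 103 CPM and from 92.8 to 133 CPM. Of 15 partners and brakes of the receptors, 11 had at least 20 counts, of which 3 were higher and 3 lower (median 0.16). Ptprb, a phosphatase at endothelial junctions, went from 592 to 1334 CPM and Dab2, an endocytic adaptor, from 40.4 to 90.6 CPM. Thbs1, an inhibitor of vessel growth, went from 201 to 34.6 CPM and Spry4, a brake on kinase signals, from 64.7 to 46.5 CPM.

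Vegfa is a known target of the hypoxia response, and its genes were read beside it. In endothelial cells, 12 of 16 hypoxia-induced genes had at least 20 counts, of which 1 was higher and 3 lower at day 7 (median -0.15). Slc2a1, a glucose transporter, went from 60.6 to 16.7 CPM and Adm, adrenomedullin, from 73.8 to 22.6 CPM. All 7 hypoxia sensing genes had enough counts, with a median of 0.41, and 1 was higher and 1 lower: the oxygen sensor Egln1 went from 68.9 to 142 CPM and Hif1a, a hypoxia-inducible factor, from 221 to 109.7 CPM, while its endothelial relative Epas1 went from 616 to 1083 CPM. In FAPs 14 of the 16 hypoxia-induced genes had at least 20 counts, of which 2 were higher and 5 lower (median -0.17 against 0.21 over all genes, of which 25.6% were higher and 14.0% lower). Slc2a1 there went from 34.7 to 6.5 CPM and the cytokine Mif from 999 to 122 CPM, whereas P4ha2, a collagen hydroxylase, went from 47.5 to 109 CPM, and no sensing gene passed 2-fold. In monocytes and macrophages 14 had at least 20 counts, of which 1 was higher and 5 lower (median -0.89 against -0.02 over all genes, of which 19.3% were higher and 12.8% lower), with Ero1l, an oxidase of the secretory pathway, from 47.7 to 13.7 CPM. Hif1a, the 1 sensing gene of 7 that was 2-fold or more lower there, went from 308 to 54.7 CPM. The part of oxygen in the Vegfa difference was not tested.

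Across 41 cell type profiles of at least 20 cells, the genes whose log2(CPM + 1) was most like each member were ranked by Pearson correlation among 11264 genes, as a description over profiles from only 2 libraries. The endothelial receptors had close partners: Flt1 had Adgrf5 (0.967), Kdr had Flt1 (0.949), Gpihbp1 (0.942) and Cdh5 (0.935), and Flt4 had Grrp1 (0.965). Pgf had Atf4 (0.796), Gprc5a (0.794) and Apln (0.778), Vegfc had Efnb1 (0.791), and Vegfb had Mlycd (0.834). Vegfa was led by Tmem120a (0.788) and Esd (0.771). Nrp1 was led by Aplp2 (0.828) and Nrp2 by Adam15 (0.814). These names depend on the measure: by Spearman correlation, 0 of the 3 leading genes were shared for Vegfb, Flt4 and Nrp1, 1 for Vegfc, Pgf, Flt1 and Nrp2, and 2 for Vegfa and Kdr.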

How the data were processed

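The authors deposited whole-number counts of unique molecules per gene and barcode, for all barcodes and for called cells, from mm10 with Cell Ranger (3.0.1 in the matrix header, 3.1.0 in the processing notes), and SoupX-corrected values, which are estimated counts. They also deposited cell types, drawn in Seurat (3.1.5) after putative doublets were removed, from clusters named by canonical genes. No doublet caller was run here. Annotated cells were kept from 750 genes and 1000 transcripts upwards if mitochondrial transcripts made up no more than 30%. Uncorrected counts were summed by class and label and scaled to CPM. Levels have exact Poisson, ratios exact conditional binomial and shares exact Clopper-Pearson intervals at 95%, which cover counting error only. A zero was set against a floor of 3 counts. A class needed 50 cells in both libraries and a gene 20 counts. Free RNA was read from barcodes with 1 to 100 counts.

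With 1 library per day, cells are not replicates and no test was run. The members and gene lists were chosen with earlier results of these data known. Of each gene list, the named genes were taken from the 2 largest and 2 smallest ratios among genes with at least 100 counts, and up to 3 most similar genes were ranked for each member. Gene positions came from GENCODE vM21 and promoter windows from RefSeq, of which 250 bases were searched. Alternatives were corrected values, other scalings (edgeR 4.0.16, R 4.3.3), other limits on cells and other thresholds. Python 3.11.15, numpy 2.4.6, scipy 1.17.1, pandas 2.3.3 and matplotlib 3.10.9 were used. The ratio intervals were tested on simulated Poisson counts, the model they assume, so variation between cells or mice was left out.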

Additional observations from a re-analysis of the deposited data

Results flagged for a closer look

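Nrp2 went in opposite directions in different classes, and the difference was not tested. Its log2 ratio of day 7 to day 2 was 1.12 in endothelial cells, 1.14 in the barcodes labelled Smooth Muscle and 1.39 in T and NK cells, against -1.35 in FAPs and -1.76 in dendritic cells. In FAPs it was -0.58 without mixed barcodes, those with 3 or more marker counts of another class. In T and NK cells it was -3.09 without the barcodes that held endothelial counts, and in dendritic cells 8 of the 14 counts of day 7 lay in 1 cell.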

How the results depend on the processing

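No paired analysis was possible because each day had 1 library, and no library could be left out. Of 142 values of the 12 member counts and 2 Vegfa shares under other settings, 117 stayed near the reported value. Of 402 values of the 48 log2 ratios of single members, 22 changed sign. Without mixed barcodes 19 of 32 such ratios moved and 1 reversed. Those of Vegfa and Nrp2 in dendritic cells became -4.21 and -2.92, that of Vegfa in endothelial cells -1.51 and that of Vegfb in monocytes and macrophages 2.22. At a limit of 4-fold, the members higher at day 7 numbered 1 in endothelial cells, 0 in the barcodes labelled Smooth Muscle, 0 in FAPs, 0 in monocytes and macrophages, 1 in dendritic cells and 0 in T and NK cells, and those lower numbered 0 in FAPs, 1 in dendritic cells and 1 in T and NK cells. Without mixed barcodes, 0 were higher in the barcodes labelled Smooth Muscle, but only 6 and 5 of them were left, which allows no comparison. In FAPs 1 was higher and 1 lower with 33 and 274 cells left, and in T and NK cells 0 were higher with 42 and 168 left, so both classes also fell under the minimum of 50 cells at day 2. In dendritic cells 1 was higher under TMM scaling, median-of-ratios scaling or stricter limits on cells. In T and NK cells 2 were higher by the mean over cells, and 6 lower under stricter limits or at 1.5-fold. The stricter limits left 22 and 195 of these cells, under the minimum of 50 at day 2. The share of Vegfa counts from monocytes and macrophages at day 2 was 45.4% by the mean over cells, 68.9% under stricter limits and 53.3% without mixed barcodes, and that from FAPs at day 7 was 43.7% by the mean over cells and 55.3% without mixed barcodes. The direction reversed for Nrp1 in monocytes and macrophages (0.70 without mixed barcodes), Flt1 in T and NK cells (0.36 by the mean over cells) and Flt4 in vein over capillary at day 7 (-0.52 without mixed barcodes). The cause was not tested. After the data were seen, settings without endothelial or lymphatic counts were added: Nrp1 and Nrp2 in T and NK cells were then -0.22 and -3.09, 0 members were higher there, and Flt4 in vein over capillary was -1.98. Scaling by the median of ratios moved all log2 ratios by -0.23 in FAPs and by less elsewhere. Read from barcodes with 1 to 10 counts, 14 of 18 free RNA levels moved. SoupX values changed no count of members, but SoupX removed only 1.21% and 1.29% of the members' counts. This setting is therefore a weak check on free RNA.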

Other observations

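Called barcodes that passed the quality limits but had no entry in the cell annotation numbered 680 at day 2 and 477 at day 7. Pgf stood at 167 CPM (157 to 178) in them at day 2 and at 16.4 CPM (12.3 to 21.4) at day 7, and Vegfa at 110.2 CPM (102 to 119) and 13.3 CPM (9.62 to 17.9). The receptors were higher at day 7: Kdr was 69.2 CPM (62.6 to 76.4) and 342 CPM (322 to 363), Flt1 127 CPM (118 to 137) and 319 CPM (299 to 339), and Nrp1 214 CPM (202 to 226) and 521 CPM (497 to 547). Which cells these barcodes hold was not analysed here.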
